A study of Macaca mulatta with 8 samples.

Results

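The genes described are the cadherin family genes of the rhesus macaque: the autosomal protein-coding genes of the NCBI Mmul_10 annotation named CDH, PCDH or CELSR with a number, without the clustered protocadherins. There are 35 of them among 19839 autosomal protein-coding genes. 2 further members on the X chromosome and 25 clustered genes were left out by the rule. Chromatin accessibility was measured by Omni-ATAC, an assay that reads where Tn5 transposase inserts into accessible DNA, in primary cells of the developing macaque cortex. The groups were 4 stages, post-conceptional days 50, 60, 80 and 85 (E50, E60, E80 and E85), with 1 culture per stage and 2 technical libraries from each. No genotype or drug separates the stages. At all of them frozen tissue pieces had been thawed, dissociated with papain and grown in a medium that enriches for progenitors, with FGF2, EGF and BDNF, so the cells are a culture and not tissue as dissected.

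Cadherins are calcium-dependent adhesion proteins that join cells through repeated extracellular domains. Classical cadherins bind catenins, which link them to actin. Delta protocadherins bind actin regulators of the WAVE complex or a phosphatase, and CELSR proteins act with Frizzled and Vangl proteins in planar cell polarity. In the developing cortex, N-cadherin (CDH2) holds the apical junctions of radial glia, and other members differ between layers, areas and neuron types.

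Values are counts of merged regions, the rheMac10 intervals under which the authors listed overlapping peaks. A locus is the gene body and 5 kb upstream. A region was taken as called at E60, for example, if a peak named for E60 was listed in it. The E50, E60, E80 and E85 sets held 19833, 61956, 60278 and 30701 peaks. E60 and E80 are therefore the pair least limited by the size of a set. Each stage rests on 1 culture, so differences between stages are given without a test and cannot be checked against replicates. Exact 95% Clopper-Pearson intervals cover counting error alone. In bulk cells, a larger share of cells with an open region and a more open region in each cell cannot be told apart. The promoters of all 10 radial glia markers were called at every stage, and those of 3, 7, 7 and 3 of 9 neuron markers at E50, E60, E80 and E85. Of 8 markers each, endothelial promoters numbered 0, 3, 2 and 0, epithelial and choroid plexus promoters 0, 2, 2 and 1, mesenchymal promoters 1, 4, 4 and 3, and microglial promoters 0 at each stage. Of 4 Schwann and neural crest markers, 1, 2, 1 and 1 had a called promoter. Over all autosomal protein-coding genes, 45.9%, 66%, 64.6% and 54.5% had a called promoter at E50, E60, E80 and E85. These shares were also highest at E60 and E80, the stages with the larger sets. Outside their promoters, 5 of the 8 microglial loci held 7 called regions. The part of cell composition in the values below was not tested.

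Cadherin loci held 210 called regions, and 30 of the 35 genes had at least 1, against 78.7% of all autosomal protein-coding loci. In order of stage, 47, 176, 165 and 71 of the 210 were called. E50 accounted for 22.4% of the cadherin regions (16.9 to 28.6), against 30.4% of the 45541 regions of all autosomal loci. At E60 the share was 83.8% (78.1 to 88.5), against 84.8%, and at E80 it was 78.6% (72.4 to 83.9), against 82.2%. At E85 it was 33.8% (27.4 to 40.6), against 44.4%. The cadherin shares thus lay below the background at the stages with the smaller sets, E50 and E85, and their intervals held the background value at E60 and E80. Cadherin regions also lay less often near a start than those of all loci, as given below. Whether this bears on the shares at E50 and E85 was not tested. Regions called at all 4 stages numbered 44, which is 21.0% of the cadherin regions (15.7 to 27.1), against 28.1% over all loci. A further 66 were called at E60 and E80 alone, 42 at E60 alone, 29 at E80 alone and 22 at every stage but E50.

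Most of the called regions of these genes lay in introns. Of the 210 regions, 151 were intronic, 35 lay within 1000 bp of a start of the cadherin gene, 15 touched an exon and 9 lay upstream. Regions within that distance of a start of any gene made up 19.5% (14.4 to 25.5), against 33.6% over all autosomal loci. Cadherin genes are long: the median gene body was 133.6 kb, against 21.5 kb for all autosomal protein-coding genes, and the median locus held 4 regions against 1. Regions called at all 4 stages included 15 promoters and 20 introns, whereas the 42 called at E60 alone included 5 promoters and 34 introns, and the 29 called at E80 alone included 1 promoter and 26 introns. Within 1000 bp of a start of any gene lay 16.3% of the cadherin regions called at E60 and not E80, against 15.7% over all loci, and 9.38% of those called at E80 and not E60, against 8.72%. Widths followed the same order. The median was 908 bp for the regions called at all 4 stages, 378 bp for those called at E60 and not E80, and 259 bp for those called at E80 and not E60. Over all loci these medians were 1091, 351 and 285 bp.

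**Figure D1:**
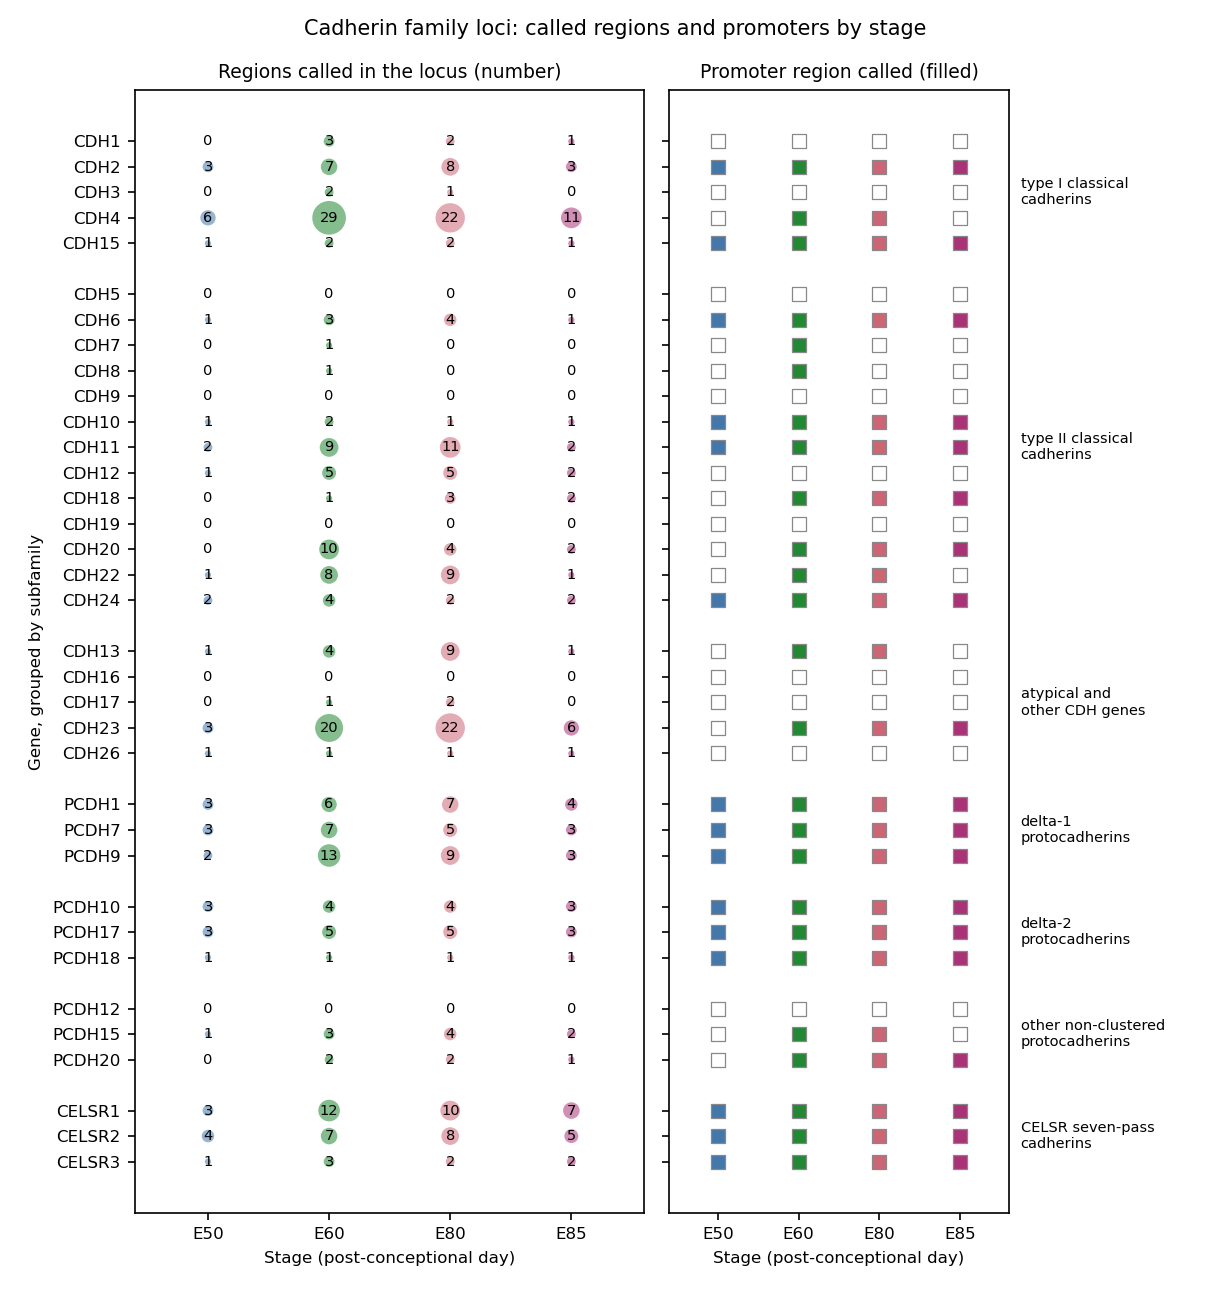
Each row is 1 cadherin family gene, grouped by subfamily, and each column is a stage. On the left, the number and circle area give the regions called in the locus. On the right, a filled square marks a called promoter region. CDH4 and CDH23 have the largest counts, 15 genes have a promoter called at all 4 stages, and no promoter is called at E50 without being called at the other stages.

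The classical cadherins of type I carried 51 regions in 5 genes, with 10, 43, 35 and 16 called at E50, E60, E80 and E85. CDH4 (R-cadherin), an adhesion molecule of neurons and the retina, had 33, the largest number in the family. Its gene lies on chromosome 10 from 96406502 to 97092675 and spans 686 kb. The counts at E50, E60, E80 and E85 were 6, 29, 22 and 11, and 10 regions were called at E60 and not E80 against 3 the other way. CDH4 also stood high for its length. Of 279 autosomal protein-coding genes over 500 kb, 20 had more regions, and the median of these genes was 13. All 10 of its E60-specific regions were intronic, between 102 and 555 kb from the start, and their widths ran from 204 to 680 bp.

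CDH2 (N-cadherin), on chromosome 18 from 54264501 to 54496867, had 10 regions, with 3, 7, 8 and 3 called at E50, E60, E80 and E85. Its first start lay in a region of 3669 bp that was called at all 4 stages. An internal start had a region of 573 bp, centred 139.6 kb from the first start. That region was called at E80 and E85 and at neither earlier stage. The 2 starts of 1 gene thus differed in the stages at which they were called. CDH1 (E-cadherin), the main epithelial cadherin, had 3 regions, with 0, 3, 2 and 1 called by stage, and none lay at its promoter. CDH3 (P-cadherin), also of epithelia, had 2 regions, with 0, 2, 1 and 0 called, again without a promoter. CDH15 (M-cadherin), known from muscle, had 3 regions, with 1, 2, 2 and 1 called.

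The stretches below contrast the CDH2 promoter region, open at all 4 stages, with the CDH4 promoter region, called at E60 and E80 alone, and with the CDH2 internal start, called at E80 and E85 alone. All sequences shown are from the plus strand of rheMac10, 5′ to 3′, and are a stretch of each region, free of annotated exons, nearest its centre. Capitals mark any match to the 7 motifs searched, which are named with the motif results. The CDH2 internal stretch was chosen after its values were seen.
CDH2 promoter, chr18:54264988-54265188: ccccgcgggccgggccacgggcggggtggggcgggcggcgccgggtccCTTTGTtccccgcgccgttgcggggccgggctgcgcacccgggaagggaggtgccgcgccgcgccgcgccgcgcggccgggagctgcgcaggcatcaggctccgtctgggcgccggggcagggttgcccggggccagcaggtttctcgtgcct
CDH4 promoter, chr10:96408423-96408623: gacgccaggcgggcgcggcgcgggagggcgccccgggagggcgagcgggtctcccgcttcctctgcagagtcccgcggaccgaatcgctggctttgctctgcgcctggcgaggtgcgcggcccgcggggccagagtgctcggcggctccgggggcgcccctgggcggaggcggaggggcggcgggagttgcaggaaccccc
CDH2 internal start, chr18:54403976-54404176: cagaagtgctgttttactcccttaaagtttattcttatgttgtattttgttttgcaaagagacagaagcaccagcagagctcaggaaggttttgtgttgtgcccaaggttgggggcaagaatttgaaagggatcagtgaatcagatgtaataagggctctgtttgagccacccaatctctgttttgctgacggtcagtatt
The stretch labelled CDH4 promoter is from the middle of a region of 2812 bp, whose centre lay 2.02 kb from the start. That region overlaps the promoter window of 1000 bp, but the bases shown lie beyond it, inside the gene. The stretches of the CDH2 and CDH4 promoter regions had a GC content of 82.1% and 79.6%, against 42.3% at the internal start. One ACAAAG match, on the minus strand, lay in the CDH2 promoter stretch and no motif match in the other pair.

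The 13 classical cadherins of type II held 53 regions in 10 genes, with 8, 44, 39 and 13 called at E50, E60, E80 and E85. CDH11 (OB-cadherin), of mesenchyme and of migrating neurons, had 11 regions, and its counts were 2, 9, 11 and 2. The first start of CDH11 was called at E60 and E80 alone. An internal start, with a region centred 50.9 kb from the first start, was called at all 4 stages. CDH22, a brain cadherin, also had 11, with 1, 8, 9 and 1 called. CDH20 had 10 regions and none at E50. Its counts at E60, E80 and E85 were 10, 4 and 2, so every CDH20 region was called at E60, and 6 of them were not called at E80.

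Several type II genes had little called chromatin despite their length. CDH12 had 6 regions over 1143 kb, with 1, 5, 5 and 2 called by stage, and 54 of the 279 genes over 500 kb had fewer. CDH18 had 3 regions over 1115 kb, with 0, 1, 3 and 2 called, and 15 of the 279 genes over 500 kb had fewer. CDH10 had 2, with 1, 2, 1 and 1 called, and CDH9 had none. These 4 genes lie on chromosome 6 and together held 11 regions in 2.61 Mb of locus, against 210 in 9.76 Mb over all cadherin loci. Low density was not limited to chromosome 6. CDH18, CDH12 and CDH10 had 0.268, 0.523 and 1.17 regions per 100 kb. On other chromosomes CDH8, PCDH15 and CDH7 had 0.249, 0.601 and 0.722. CDH7 and CDH8, which mark subsets of neurons and compartments of the brain, had 1 region each. In both genes it was the promoter, called at E60 and at no other stage, with a width of 741 bp at CDH7 and 524 bp at CDH8. CDH6, also of type II and on chromosome 6, had 4 regions over 140.8 kb, with 1, 3, 4 and 1 called. CDH24 had 4, with 2, 4, 2 and 2. 3 of the CDH24 regions also lay in the neighbouring loci ACIN1 and LOC114679672. CDH5 (VE-cadherin), of endothelial junctions, and CDH19, of Schwann cells, had no region at any stage.

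The CDH7 promoter region was 1 of 5 cadherin promoter regions called at E60 alone. The stretch of it outside the annotated exons, chosen after its values were seen, is 99 bases long and holds none of the motifs searched.
CDH7 promoter, chr18:14308445-14308543: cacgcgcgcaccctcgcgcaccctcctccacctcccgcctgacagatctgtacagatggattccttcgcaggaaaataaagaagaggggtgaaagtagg

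The atypical cadherins had 37 regions in 5 genes, with 5, 26, 34 and 8 called at E50, E60, E80 and E85. Of these, 11 were called at E80 and not E60, against 3 the other way, the largest such excess among the subfamilies. CDH13 alone held 6 of the 11 and 1 of the 3. Over all autosomal loci, E80 had 45.6% of the regions called at 1 of E60 and E80. Whether the subfamily differs from this share was not tested. CDH23, whose protein forms the tip links of hair cells with PCDH15, had 24 regions, with 3, 20, 22 and 6 called. 4 of them were also in the loci of C9H10orf105 and VSIR. CDH13 (T-cadherin), which is anchored by a lipid and lacks the catenin-binding tail, had 10 regions over 1165 kb. Its counts were 1, 4, 9 and 1, with 6 regions called at E80 and not E60 and 1 the other way. CDH17, of intestinal epithelium, had 2, with 0, 1, 2 and 0 called. CDH26 had 1, called at all 4 stages, which lay at the starts of its neighbours FAM217B and PPP1R3D. CDH16, of the kidney, had none.

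All 3 delta-1 protocadherins, all 3 delta-2 protocadherins and all 3 CELSR genes had a promoter called at all 4 stages, as did 44.3% of all autosomal protein-coding genes and 6 CDH genes. Whether these groups differ was not tested. PCDH9 had 14 regions over 952 kb, with 2, 13, 9 and 3 called at E50, E60, E80 and E85, and 5 were called at E60 and not E80 against 1. PCDH7 had 7, with 3, 7, 5 and 3 called, and PCDH1 had 7, with 3, 6, 7 and 4. The delta-2 genes PCDH10, PCDH17 and PCDH18 had 4, 5 and 1 regions. Each of these 10 regions was called at both E60 and E80, and 7 were called at E50 and 7 at E85. Called at both E60 and E80 were 133 of the 210 cadherin regions and 31461 of the 45541 regions of all autosomal loci. Whether the delta-2 genes differ from these was not tested. PCDH8, of the same group, was not found under that symbol in the annotation. PCDH15, the partner of CDH23, had 6 regions, with 1, 3, 4 and 2 called, PCDH20 had 2, with 0, 2, 2 and 1, and PCDH12, of endothelium, had none.

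CELSR1, a planar polarity cadherin of progenitors, had 12 regions in 146.7 kb, with 3, 12, 10 and 7 called at E50, E60, E80 and E85. CELSR2 had 8 regions in 26.3 kb, with 4, 7, 8 and 5 called. CELSR3, which guides axon tracts, had 3, with 1, 3, 2 and 2, of which 1 also lay in the SLC26A6 locus. Each of the 3 CELSR loci had at least 1 region called at all 4 stages. Loci of other subfamilies had such regions too, among them CDH4 with 5, CDH23 with 3 and PCDH7 with 3. Over all autosomal loci 28.1% of the regions had this pattern.

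Promoters were called for 15, 25, 23 and 19 of the 35 genes at E50, E60, E80 and E85. Over all autosomal protein-coding genes the shares were 45.9%, 66%, 64.6% and 54.5%. The 15 genes with a promoter at all 4 stages (42.9%, 26.3 to 60.6, against 44.3% of all genes) were CDH2, CDH6, CDH10, CDH11, CDH15, CDH24, PCDH1, PCDH7, PCDH9, PCDH10, PCDH17, PCDH18 and CELSR1 to CELSR3. In 10 genes the promoter calls differed between stages, and in each of them the promoter was not called at E50. CDH4, CDH13, CDH22 and PCDH15 had a promoter at E60 and E80 alone. CDH18, CDH20, CDH23 and PCDH20 had one at E60, E80 and E85. For CDH18 all of these calls, and for CDH20 the call at E85, were at an internal start alone. CDH7 and CDH8 had one at E60 alone. The remaining 10 genes had no promoter region at any stage: CDH1, CDH3, CDH5, CDH9, CDH12, CDH16, CDH17, CDH19, CDH26 and PCDH12. At first starts alone the counts by stage were 14, 24, 22 and 16. For CDH15 the 4 calls came from separate regions, of 640 bp at E50, E80 and E85 and of 283 bp at E60.

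Between E60 and E80, 133 cadherin regions were shared, 43 were E60-specific (called there and not at E80) and 32 were E80-specific. The E80 share of the discordant regions was 42.7% (31.3 to 54.6), against 45.6% (44.7 to 46.4) over all autosomal loci, a value inside the cadherin interval. Among the 30 loci with regions, 12 had more E60-specific regions, 11 more E80-specific ones and 7 equal numbers. The late-only share counts regions called at E80 or E85 and neither earlier stage, among those plus the reverse. It was 42.7% (32 of 75), against 47.5% over all loci. Both shares rest on nearly the same regions, mainly the 42 called at E60 alone and the 29 at E80 alone. They are therefore not separate results. Both values lay below those of all loci by less than the width of the cadherin intervals, and the subfamilies and single loci went in different directions.

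**Figure D2:**
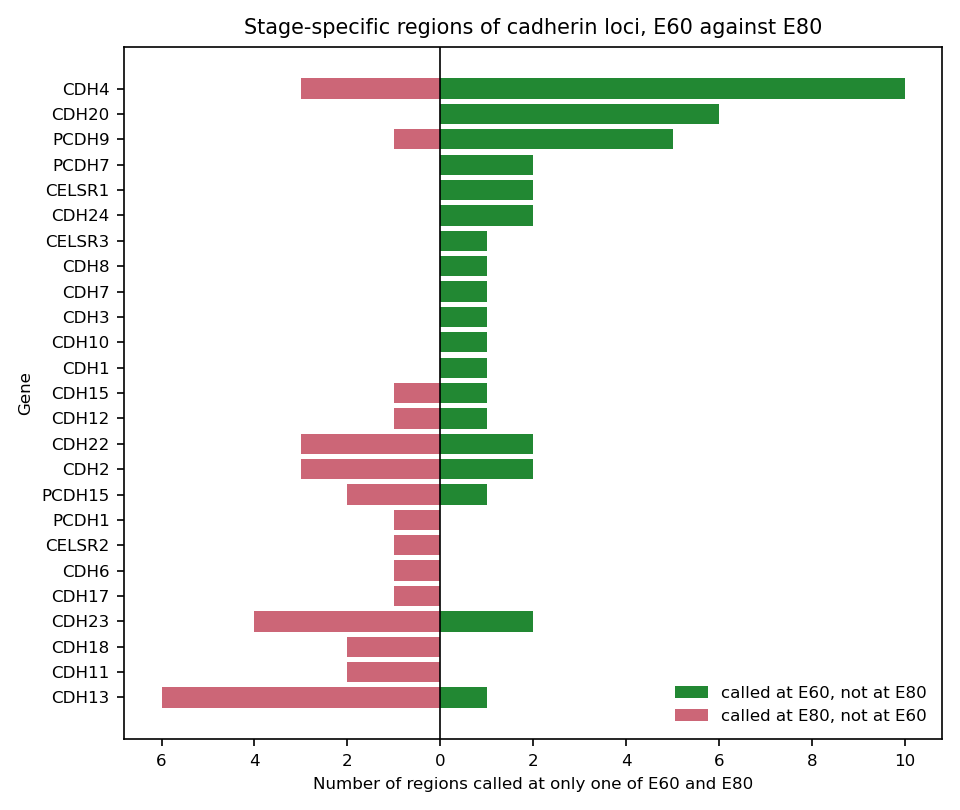
Horizontal bars give, for each cadherin gene with a discordant region, the number of regions called at E60 and not E80 (right) and at E80 and not E60 (left). CDH4, CDH20 and PCDH9 extend furthest to the right of balance, and CDH13 has 6 regions on the left against 1.

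A locus was counted as past a fixed difference when its specific regions of 1 stage exceeded those of the other by at least 3. On the E60 side 3 of the 30 cadherin loci with regions were past it, CDH4, CDH20 and PCDH9, against 2.63% of all 15613 autosomal loci with regions. Without regions that hold a peak named as lifted, 1 of these 3 was past it, CDH4, and CDH20 and PCDH9 were not. With all regions kept, 1 locus was past it on the E80 side, CDH13, against 1.52%. Loci with many regions have more room for such a difference. Among loci with at least 10 regions the counts were 3 of 9 and 1 of 9, against 27.6% and 14%. The cadherin shares were thus near the background of large loci. Of the 15613 loci, 39 had a difference towards E60 of at least that of CDH4, 72 of at least that of CDH20 and 225 of at least that of PCDH9, and 33 had one towards E80 of at least that of CDH13.

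**Figure D3:**
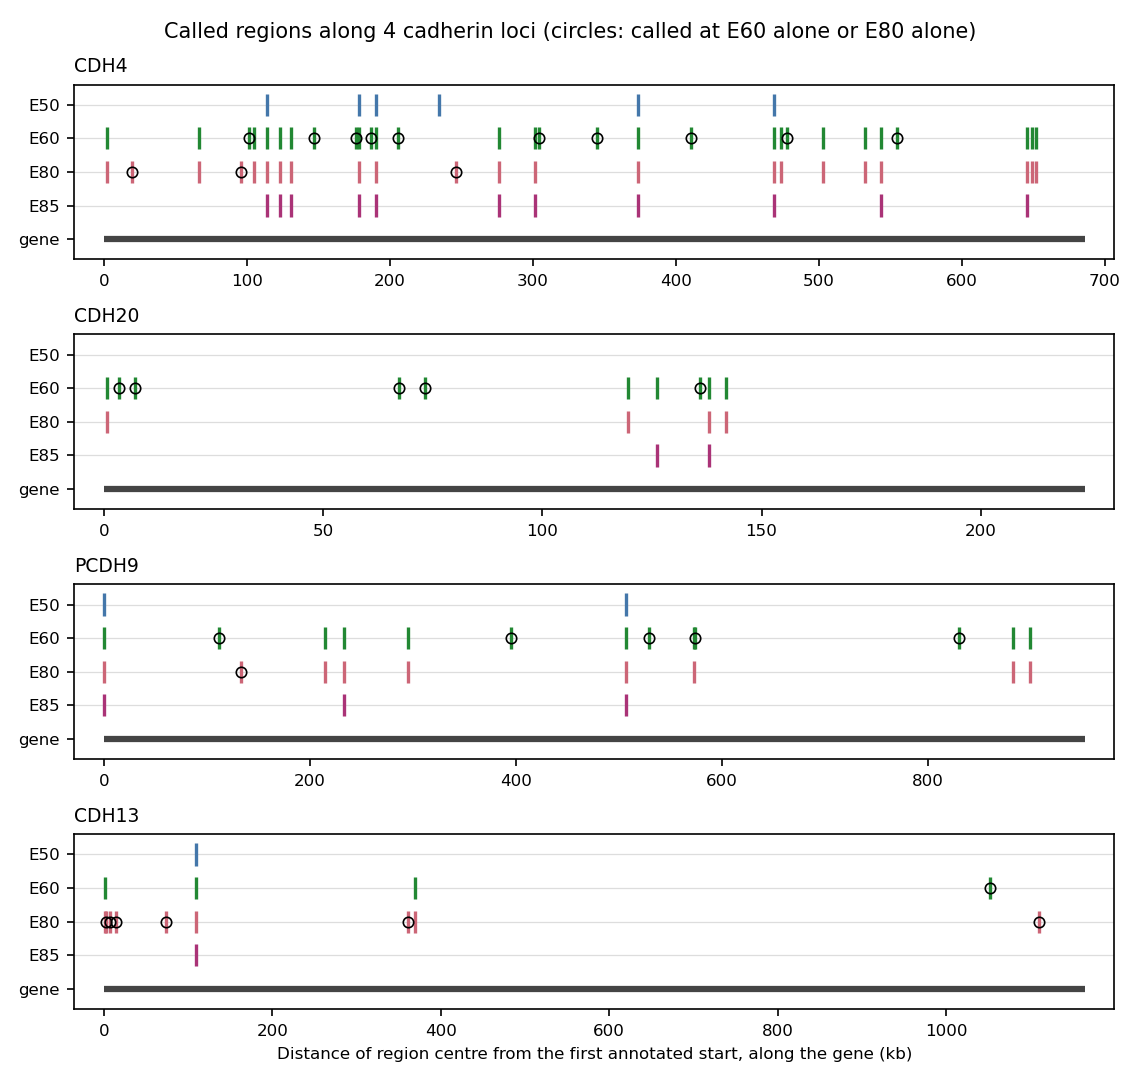
For CDH4, CDH20, PCDH9 and CDH13, vertical marks show the centre of each called region by stage, against its distance in kb from the first annotated start along the gene (dark bar). Circles mark regions called at E60 alone or E80 alone. The E60-alone regions of CDH4 and PCDH9 are spread through the gene, and 3 of the 6 E80-alone regions of CDH13 lie within 15 kb of its start.

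The 6 E80-specific regions of CDH13, on chromosome 20, lay 3.01, 7.46, 14.6, 73.4, 361 and 1111 kb downstream of its first start, all in introns. They were narrow, from 238 to 471 bp, with a median of 287 bp. 4 of them held an AP-1 motif, TGAGTCA or TGACTCA, the binding letters of FOS and JUN proteins. 3 held the TEAD motif ACATTCC and 4 the SOX motif ACAAAG, in either orientation. Over all autosomal loci, 37.4%, 10.0% and 25.6% of the E80-specific regions held AP-1, TEAD and SOX motifs. Whether the 6 regions of CDH13 differ from these shares was not tested. The widest region and the 4 with AP-1 are shown to set the shared letters in their surroundings. The latter 4 were chosen after their values were seen.
CDH13, 3.01 kb, chr20:69648852-69649052: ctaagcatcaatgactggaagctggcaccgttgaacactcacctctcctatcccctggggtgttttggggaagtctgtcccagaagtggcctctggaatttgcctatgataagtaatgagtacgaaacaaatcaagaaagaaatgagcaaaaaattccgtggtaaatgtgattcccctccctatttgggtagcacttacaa
CDH13, 14.6 kb, chr20:69660414-69660614: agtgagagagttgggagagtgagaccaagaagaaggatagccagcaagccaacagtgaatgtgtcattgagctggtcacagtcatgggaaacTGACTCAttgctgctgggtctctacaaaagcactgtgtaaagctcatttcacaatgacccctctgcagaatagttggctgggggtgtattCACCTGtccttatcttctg
CDH13, 73.4 kb, chr20:69719269-69719469: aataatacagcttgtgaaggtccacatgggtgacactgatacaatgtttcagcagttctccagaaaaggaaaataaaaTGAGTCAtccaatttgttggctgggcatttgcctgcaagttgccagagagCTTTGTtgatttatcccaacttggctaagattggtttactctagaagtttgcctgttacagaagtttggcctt
CDH13, 361 kb, chr20:70006490-70006690: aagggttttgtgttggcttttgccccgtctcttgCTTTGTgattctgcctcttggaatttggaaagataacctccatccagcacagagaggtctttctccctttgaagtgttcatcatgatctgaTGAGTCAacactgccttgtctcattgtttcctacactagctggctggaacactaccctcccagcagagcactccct
CDH13, 1111 kb, chr20:70756423-70756623: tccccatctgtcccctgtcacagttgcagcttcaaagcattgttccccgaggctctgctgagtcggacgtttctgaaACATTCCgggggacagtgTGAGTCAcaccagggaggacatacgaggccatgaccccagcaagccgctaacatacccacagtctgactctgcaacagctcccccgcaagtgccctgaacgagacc
The widest region had none of the motifs in the bases shown. On the plus strand TGACTCA lay in the region 14.6 kb from the start and TGAGTCA in the other 3. In the region at 1111 kb, ACATTCC lay 5′ of TGAGTCA in the same stretch. The TEAD match of the region at 73.4 kb fell outside the bases shown. The single E60-specific region of CDH13, at 1052 kb, also held an AP-1 match.

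The E60-specific regions of CDH4, CDH20 and PCDH9 held no AP-1 match in 10, 6 and 5 regions. The E-box CAGCTG, a binding site of proneural basic helix-loop-helix factors, lay in 5 of the 10 at CDH4, in 2 of the 5 at PCDH9 and in 0 of the 6 at CDH20. The homeobox core TAATTA lay in 1, 2 and 2 of the regions of CDH4, CDH20 and PCDH9. Over all autosomal loci, 10.1%, 31.3% and 13.0% of the E60-specific regions held AP-1, CAGCTG and TAATTA. Whether these loci differ from those shares was not tested. The widest E60-alone region of each locus is shown, with 1 further CDH20 region chosen after its values were seen because TAATTA lies in its centre.
CDH4, 478 kb, chr10:96884606-96884806: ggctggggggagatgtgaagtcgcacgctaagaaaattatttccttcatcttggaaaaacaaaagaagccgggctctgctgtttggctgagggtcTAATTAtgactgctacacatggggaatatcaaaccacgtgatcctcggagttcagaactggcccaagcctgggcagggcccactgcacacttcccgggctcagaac
PCDH9, 396 kb, chr17:48261456-48261656: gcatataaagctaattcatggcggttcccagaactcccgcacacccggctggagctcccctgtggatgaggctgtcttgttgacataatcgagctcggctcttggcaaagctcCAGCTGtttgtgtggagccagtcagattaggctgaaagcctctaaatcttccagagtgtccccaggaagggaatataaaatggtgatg
CDH20, 3.48 kb, chr18:18804607-18804807: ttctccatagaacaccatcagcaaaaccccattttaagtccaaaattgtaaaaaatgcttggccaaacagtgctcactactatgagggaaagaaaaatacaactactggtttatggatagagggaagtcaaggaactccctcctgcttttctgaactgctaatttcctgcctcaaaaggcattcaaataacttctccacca
CDH20, 7.22 kb, chr18:18800872-18801072: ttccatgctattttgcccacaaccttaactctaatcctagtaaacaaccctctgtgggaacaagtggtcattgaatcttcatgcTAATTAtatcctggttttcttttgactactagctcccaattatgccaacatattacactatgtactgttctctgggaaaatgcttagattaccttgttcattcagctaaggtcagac
Capitals mark TAATTA in the CDH4 stretch, CAGCTG in the PCDH9 stretch and TAATTA in the second CDH20 stretch. The widest CDH20 region, of 1276 bp, held none of the motifs in the bases shown.

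Over the whole family the motif shares of stage-specific regions lay near those of all autosomal loci. The motifs were searched on both strands within 150 bp of the centre of each region. AP-1 was found in 13 of 32 E80-specific cadherin regions, or 40.6% (23.7 to 59.4), against 37.4% over all loci. In E60-specific cadherin regions it was found in 5 of 43, or 11.6% (3.89 to 25.1), against 10.1%. The cadherin loci thus showed the same order as the background, with more AP-1 in the regions called at E80 and not E60. TEAD was found in 12.5% of the E80-specific and 4.65% of the E60-specific regions, against 10.0% and 3.44%. TAATTA was found in 1 of 32 E80-specific regions (3.13%, against 6.82%) and in 7 of 43 E60-specific ones (16.3%, against 13.0%). CAGCTG was found in 18.8% and 32.6%, against 21.9% and 31.3%, and ACAAAG in 28.1% and 30.2%, against 25.6% and 28.9%. The E-box CACCTG, read by Snail and Zeb repressors of CDH1, was found in 18.8% and 18.6%, against 13.6% and 19.6%. The nuclear factor I palindrome was in none of the 210 regions, against 0.0615% over all loci. Each background value lay inside the cadherin interval. Matches of different motifs may overlap in position, and a region can hold several.

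**Figure D4:**
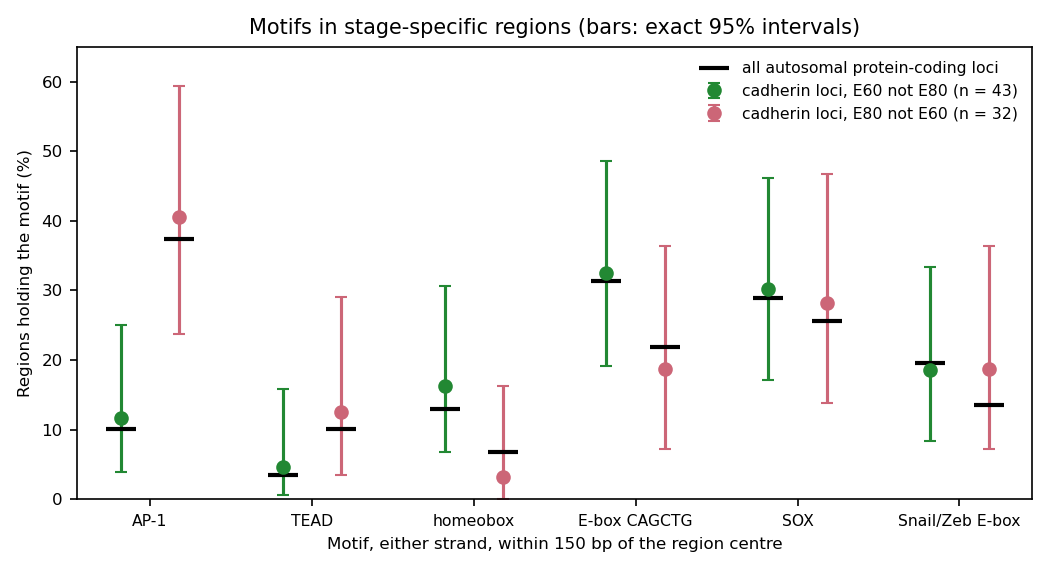
Points give the percentage of cadherin regions that hold each motif, for regions called at E60 and not E80 (n = 43) and at E80 and not E60 (n = 32), with exact 95% intervals as bars. Black dashes give the same percentage over all autosomal protein-coding loci, and each dash lies within the interval of its point.

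Merged regions can also hold peaks whose names mark them as lifted, from sets that the labels do not define. Of the 210 cadherin regions 131 held one, or 62.4% (55.5 to 69.0), against 67.9%. This moved with the direction of the E60 and E80 comparison. Among regions with a lifted peak, 27 were E60-specific and 7 E80-specific, an E80 share of 20.6% (8.70 to 37.9), against 33.1% over all loci. Among regions without one, 16 were E60-specific and 25 E80-specific, a share of 61.0% (44.5 to 75.8), against 55.2%. Without regions that hold a lifted peak, CDH4 had 6 E60-specific regions against 2 and CDH13 had 0 against 5. CDH20 then had 1 against 0 and PCDH9 had 1 against 1, so neither was past the difference of 3. Whether the merging with lifted peaks bears on these calls was not tested.

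Cytoplasmic and membrane partners gave the following counts. The 11 catenins and related linkers held 94 regions, with 21, 81, 69 and 30 called at E50, E60, E80 and E85, and 24 were E60-specific and 12 E80-specific, beside an E80 share of 45.6% over all loci. CTNND2, a delta-catenin of the synapse that binds the cadherin tail, had 31 regions, with 4, 30, 19 and 6 called, and 12 E60-specific against 1. CTNNA3, an alpha-catenin known from the heart, had 13, with 2, 11, 6 and 3 called, and 7 against 2. VCL (vinculin), which binds alpha-catenin under tension, had 9, with 2, 5, 9 and 4 called, and 0 against 4. These 3 of the 11 were past the difference of 3, 2 towards E60 and 1 towards E80, against 2.63% and 1.52% of all loci with regions. CTNND2 and CTNNA3 are large loci, and among those with at least 10 regions the shares were 27.6% and 14%. CTNNB1, the beta-catenin gene, had 1 region, called at all 4 stages. The 16 FAT, Dachsous and planar polarity genes held 92 regions, with 24, 80, 74 and 37 called. FAT3, a giant cadherin-like gene, was the single one past the difference, with 27 regions, 3, 24, 18 and 4 called, and 9 E60-specific against 3. The 9 WAVE complex genes held 38 regions, with 9, 33, 30 and 16 called, and none was past the difference. The median difference between E60-specific and E80-specific regions was 0 in each of the 3 lists, as it was over the cadherin genes and over all autosomal loci.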

How the data were processed

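Omni-ATAC libraries of rhesus macaque cortex cultures were analysed at 4 stages, with 1 culture and 2 technical libraries per stage. The deposited table lists 112696 merged regions with the names of the peaks in each. It was made by the authors on rheMac10. Reads were handled with Bowtie2 2.5.1, SAMtools 1.15 and cutadapt 4.4, per the submitters' processing notes. The peak caller, its threshold and the pooling of libraries were not given in the sources used here. 8 value columns carry no names and were not used, so read depth per library was not analysed.

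Starts were read as 0-based and are given 1-based. Regions were joined to the NCBI annotation of Mmul_10, and 72358 held a peak of at least 1 stage. Promoters are 1000 bp on either side of any annotated start. The members and lists were chosen with earlier results of these data known. Genes were named by rule: the 10 with the most regions, those past a difference of 3 regions between E60 and E80, those with differing promoter calls, those with no region, and the partners past that difference. Others are given because every member is accounted for. Alternatives were other locus and promoter bounds, distal or narrow regions alone, regions without lifted peaks, other differences, and each stage left out. The counting was tested on simulated data. Python 3.11.15, pandas 2.3.3, NumPy 2.4.6, SciPy 1.17.1 and matplotlib 3.10.9 were used.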

Additional observations from a re-analysis of the deposited data

Results flagged for a closer look

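A signal outside the 4 stage sets was present in the loci: 147 merged regions in cadherin loci held lifted peaks alone and no peak of any stage. They made up 41.2% of the 147 and the 210 stage regions together, against 33.5% over all autosomal loci. The largest numbers were 30 at CDH4, 23 at PCDH9, 13 at CDH2 and 10 at CDH23. CDH5 and PCDH12, without a stage region, had 1 and 3. The labels do not define the sets behind these peaks, and there is no control set to compare them with.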

How the results depend on the processing

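Of 77 values under alternative settings, 59 stayed within the set margin and 18 moved. Regions without a lifted peak gave an E80 share of 61.0%, a late-only share of 61.9%, 1 locus past the difference towards E60, and 6, 52, 61 and 15 regions at E50, E60, E80 and E85. Bounds of 50 kb on either side of the gene gave 88, 279, 268 and 129. At E50, distal regions alone gave 30 regions and those of at most 1 kb gave 29. A difference of 2 regions put 6 loci towards E60 and 4 towards E80, and distal regions alone put 2 towards E80, CDH13 and CDH23. The late-only share was 99.2% without stage E60 and 2.65% without stage E80, by construction of those sets. No paired analysis was possible because the region table names stages, not libraries, and the 2 libraries of a stage come from 1 culture. The precision of each count is limited by the number of regions per locus and by set size, which was smallest at E50.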

Other observations

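Among the 44 cadherin regions called at all 4 stages, the SOX motif ACAAAG was found in 14, or 31.8% (18.6 to 47.6), against 16.3% of the 12791 such regions of all autosomal loci. TEAD was found in 5 of the 44, or 11.4% (3.79 to 24.6), against 3.47%. In these motif shares the background lay below the cadherin interval. Both were picked with their values in view, among all motifs and region classes computed, and neither was tested. The cadherin regions called at all 4 stages had a median width of 908 bp, against 1091 bp. They are part of the regions called at both E60 and E80, which differed in make-up. Of those, 23.3% of the cadherin ones lay within 1000 bp of a start of any gene, against 42.4% over all loci. Whether width or promoter share bears on the motif shares was not tested.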
